A study of Mus musculus with 33 samples.

Results

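The cerebella of mice lacking 2 of the microRNA-7 genes (genotype Mir7a1-/-; Mir7b-/-, labelled Mir7DKO) were compared with wild-type (WT) cerebella in the second experiment of a series on the noncoding RNAs Cyrano, Cdr1as and miR-7. The comparison rests on 7 of the series' 33 RNA-seq libraries, 4 WT and 3 Mir7DKO, and was made over all genes. All mice were C57Bl/6J males of 1 month. Tissue was flash frozen, RNA was extracted with Trizol, and polyA-selected stranded NEXTflex libraries were made. The design calls the libraries biological replicates, 3 or 4 for each tissue and genotype, and compares libraries only within an experiment. Other libraries were used for reference. They are 4 WT and 3 Mir7DKO cortex libraries of the same experiment, 3 WT and 4 CyrMut cerebella of experiment 1A (Cyrano with a mutated miR-7 site), and 4 WT, 4 CyrKO (Cyrano-/-) and 4 Mir7DKO cerebella of experiment 1B, all of the same strain, sex and age. Which bases were deleted in the Mir7 alleles was not given in the sources used here. Another miR-7 gene, Mir7-2, is not named in the genotype. Mir7DKO stands below for the libraries so labelled.

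MicroRNAs guide Argonaute proteins to partly complementary sites, mostly in 3′ UTRs, and lower the stability and translation of the mRNAs that hold them. miR-7 is abundant in neuroendocrine cells and parts of the brain. The circular RNA Cdr1as carries many miR-7 sites, and the long noncoding RNA Cyrano holds an extensively paired site that leads to destruction of miR-7. The choroid plexus is a secretory epithelium lying on a vascular core in the brain ventricles. It makes cerebrospinal fluid and, in the fourth ventricle, lies against the cerebellum, so a dissected cerebellum can carry more or less of it.

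The mature miRNAs of the deleted genes are shown because every target match counted below derives from their seed, bases 2 to 8 from the 5′ end, in capitals. Both sequences, from RefSeq (GRCm38.p6), share that seed.
mmu-miR-7a-5p: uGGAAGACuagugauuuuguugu
mmu-miR-7b-5p: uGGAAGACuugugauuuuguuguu
They are 23 and 24 bases long and differ at 1 aligned base, A10U, counted from the 5′ end of miR-7a. Mir7-1 encodes miR-7a at chr13:58392841-58392863 on the minus strand, and Mir7b encodes miR-7b at chr17:56243017-56243040 on the plus strand. Mir7-2 encodes the same mature miR-7a at chr7:78888295-78888317 on the plus strand.

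The 7 libraries held 9767559 to 12859116 counts each. PolyA-selected libraries do not measure mature miRNAs, and the counts at the hairpin genes were few. Mir7b had 0 counts in each WT library and 8, 3 and 1 in Mir7DKO libraries 1 to 3. A count of 0 allows up to 3 counts. Mir7-1 had 0, 3, 1 and 1 counts in WT and 4, 1 and 3 in Mir7DKO, and Mir7-2 had 0 in all 7. These counts were not lower in the Mir7DKO libraries, and they do not check the genotype labels. Of the genes within 5 Mb of Mir7-1 (71 tested), Mir7b (56) and Mir7-2 (73), none passed the test described below. An unadjusted p below 0.05 was reached by 11.3%, 5.36% and 12.3% of them, beside 6.78% of all genes tested.

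The libraries differed in choroid plexus transcripts, and the difference did not follow genotype in all of them. Ttr, which encodes the thyroxine carrier transthyretin and is among the most abundant choroid plexus mRNAs, was at 2.76, 8.70, 5.21 and 2.92 CPM (read counts scaled to library size with edgeR's TMM factors) in WT libraries 1 to 4. It was at 580, 360 and 3.47 CPM in Mir7DKO libraries 1 to 3. Mir7DKO libraries 1 and 2 were thus far above WT, and library 3 lay inside the WT range. The same pattern held for Kl (Klotho, a coreceptor for FGF23), at 1.53, 2.42, 1.14 and 2.17 CPM in WT and 39.1, 27.6 and 2.10 in Mir7DKO. Folr1, the choroidal folate receptor, was at 0, 0, 0.326 and 0.0835 CPM in WT and 3.99, 3.52 and 0.242 in Mir7DKO. In bulk tissue, fewer cells of a type and less RNA per cell cannot be told apart.

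A choroid plexus index was formed for each library as the mean log2(CPM + 0.5) of 12 genes (Ttr, Folr1, Kl, Kcnj13, Clic6, Aqp1, Sostdc1, Tmem72, Slc4a5, Kcne2, Cldn2 and Calml4). It was 0.48, 0.66, 0.57 and 0.45 in the WT libraries and 3.63, 3.20 and 0.35 in the Mir7DKO libraries. The Mir7DKO mean was 1.86 log2 units above the WT mean. Libraries 1 and 2 together stood 2.88 above it, and library 3 stood 0.18 below it (a difference of -0.18). The summed level of the 12 genes was 20.6 to 27.6 CPM in WT and 710, 452 and 17.8 CPM in Mir7DKO. High values occurred in other genotypes too. Among the 19 cerebella of experiments 1A and 1B, the index ran from 0.20 to 4.43, with values of 1.85 or more in 1 of 3 WT and 3 of 4 CyrMut libraries of 1A, and in 1 of 4 WT, 1 of 4 CyrKO and 1 of 4 Mir7DKO libraries of 1B.

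**Figure D1:**
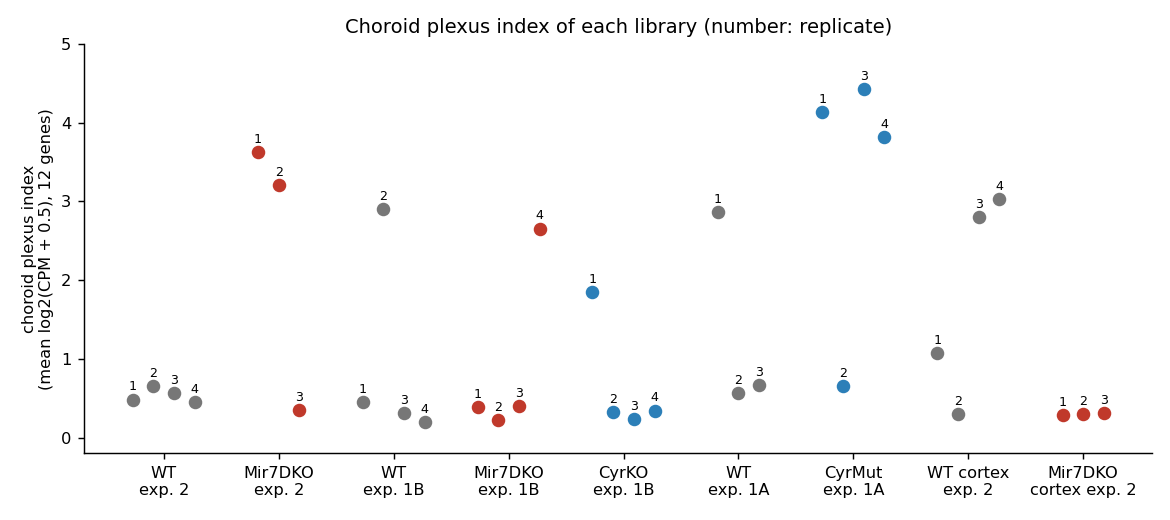
Choroid plexus index (mean log2 of CPM + 0.5 over 12 genes, vertical axis) of every library, by group. Mir7DKO libraries 1 and 2 of experiment 2 sit at 3.63 and 3.20, library 3 sits at 0.35 with the 4 WT libraries (0.45 to 0.66), and high libraries occur in other genotypes too.

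Of 14146 genes tested, 28 (0.198%) passed edgeR's quasi-likelihood test at a Benjamini-Hochberg adjusted p below 0.05, 22 higher (0.156%) and 6 lower (0.0424%) in Mir7DKO. An unadjusted p below 0.05 was reached by 959 genes (6.78%). The count changed with single libraries, to 3 without WT 1, 3 without WT 2, 6 without WT 4, 67 without Mir7DKO 2 and 70 without Mir7DKO 3, and without Mir7DKO 1 and 2 together it was 110. The 28 genes fell into 2 sets of 14, according to whether their level followed the index. A gene was taken to follow the index when it was an index gene itself (Ttr, Kl, Slc4a5) or when its slope on the index passed the same test in the 19 cerebella of experiments 1A and 1B, none of which enters the experiment 2 comparison. By that criterion 14 genes followed the index, all of them higher in Mir7DKO. The other 14, 8 higher and 6 lower, did not.

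**Figure D2:**
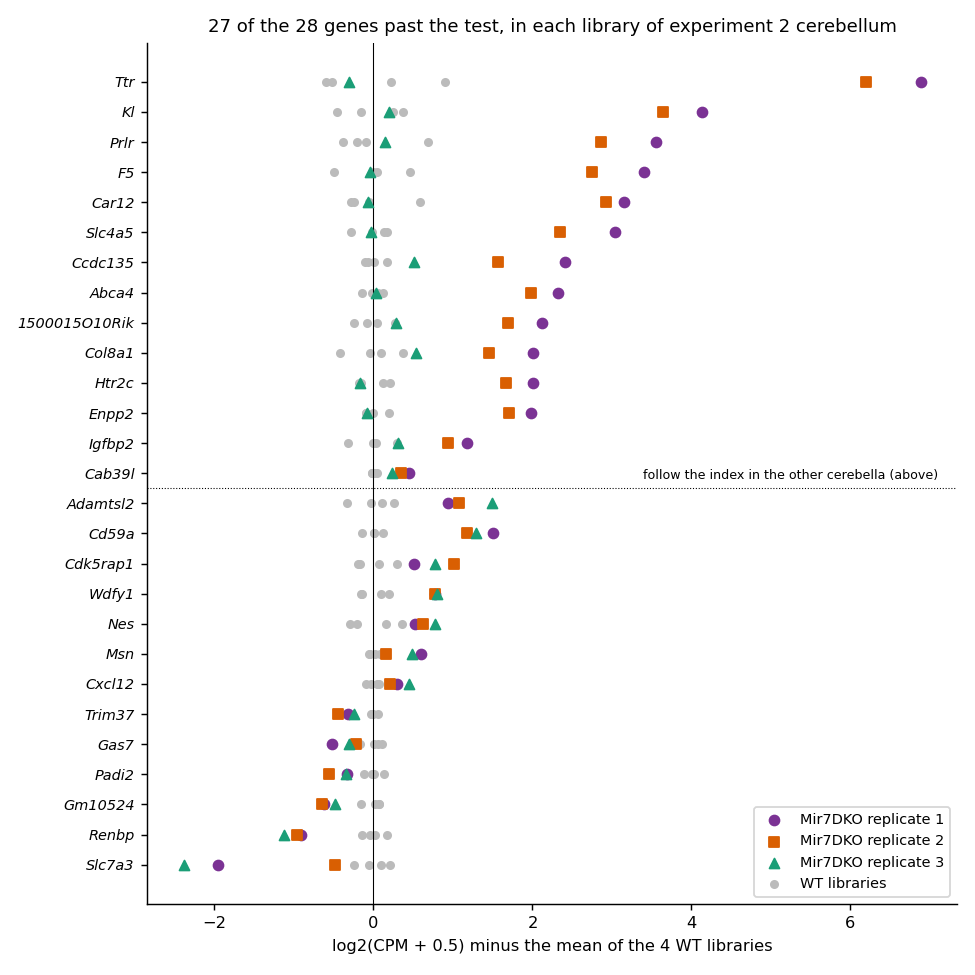
Difference from the WT mean (log2, horizontal axis) of each Mir7DKO library for 27 of the 28 genes that passed the test, with genes that follow the choroid plexus index and those that do not set apart. Library 3 lies within the WT range for 9 of the 14 genes that follow the index and for none of the others shown.

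The set that follows the index held genes with secretory and transport roles in the choroid plexus. Enpp2, which encodes autotaxin, the enzyme that makes lysophosphatidic acid, was at 181, 221, 193 and 181 CPM in WT and 767, 631 and 183 CPM in Mir7DKO. Its log2 change was 1.44 (SE 0.25, adjusted p = 0.0149 in edgeR's quasi-likelihood test), although library 3 lay within the WT range. The prolactin receptor gene Prlr was at 0.716, 0.580, 0.814 and 1.75 CPM in WT and 16.03, 9.69 and 1.05 in Mir7DKO, a log2 change of 3.16. Car12, a membrane carbonic anhydrase, was at 0.835 to 1.94 CPM in WT and 13.9, 11.8 and 1.05 in Mir7DKO (log2 change 2.94). Slc4a5, a sodium bicarbonate cotransporter, was at 1.06 to 1.64 CPM in WT and 15.1, 9.22 and 1.37 in Mir7DKO (log2 change 2.59). F5 (coagulation factor V), the serotonin receptor gene Htr2c and Abca4, a lipid flippase known from photoreceptors, had the same order of libraries, with log2 changes of 3.04, 1.51 and 1.95. In these genes, as in Ttr (log2 change 6.01, SE 0.80, adjusted p = 0.000912 in edgeR's test) and Kl (3.66), library 3 was within the WT range.

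For 5 genes of this set library 3 was above every WT library, by less than libraries 1 and 2. Col8a1 (a collagen VIII chain) was at 1.30 to 2.61 CPM in WT and 9.20, 6.09 and 2.98 in Mir7DKO. Ccdc135, which encodes a part of the regulatory complex of motile cilia, was at 0.716 to 0.967 CPM in WT and 6.43, 3.36 and 1.37 in Mir7DKO. Igfbp2, an insulin-like growth factor binding protein, was at 6.29 to 9.93 CPM in WT and 18.7, 15.8 and 9.99 in Mir7DKO. The secreted peptide gene 1500015O10Rik (1.83) and the kinase adaptor gene Cab39l (0.35) complete the set, with these log2 changes. Over all 14 genes the median difference from the WT mean was 2.36 in library 1, 1.84 in library 2 and 0.083 in library 3 (log2).

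The slopes came from other libraries, and each was multiplied by the index difference of experiment 2. Enpp2 rose by 0.62 log2 units per unit of index in the 19 other cerebella, which over the index difference of 1.86 comes to 1.16. The mean difference of the 3 Mir7DKO libraries from the WT mean on the log2(CPM + 0.5) scale, which weights the libraries equally as the index difference does, was 1.204. For Car12 the product was 2.16 beside a mean difference of 2.0002, for Prlr 2.12 beside 2.19, for F5 1.96 beside 2.04 and for Htr2c 1.18 beside 1.17. The gap was wider for Abca4 (1.199 beside 1.44), Igfbp2 (0.60 beside 0.81) and Col8a1 (1.03 beside 1.33). For Ttr the product was 4.90 beside 4.26, but its slope was taken on an index without Ttr. The index difference of 1.86 includes Ttr, so the size of that gap cannot be read like the others. With the index as a covariate in the experiment 2 fit itself, changes in the set ran from -0.07 (Htr2c) to 0.76 (Ccdc135) and none passed the test.

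In the 19 other cerebella, 60 of 14856 genes (0.404%) had a slope that passed the test, 59 positive (0.397%) and 1 negative (0.00673%). An unadjusted p below 0.05 was reached by 4.93%. The negative one, Cebpd, a transcription factor gene, was not tested in experiment 2. Of the positive ones, 47 were outside the index and 35 of these were tested in experiment 2. The median log2 change of those 35 was 1.05, against -0.002 for all genes tested, 34 were above 0, and 11 passed the test. At a slope of at least 0.25 per unit of index, 24 of 24 tested genes had an unadjusted p below 0.05 in experiment 2, all higher. The filter on low counts kept some of these genes only through their level in the Mir7DKO libraries. The median and the counts of higher genes are therefore partly set by that filter. Some members of this set did not pass the test in experiment 2, such as the ion channel gene Trpv4 (1.83, adjusted p = 0.0932 in edgeR's test) and the collagen gene Col8a2 (1.39, adjusted p = 0.0855 in edgeR's test). With the index as a covariate the median of the 35 was 0.18 and none passed. Among the 14 called genes that follow the index, the smallest slope was that of Cab39l (0.13, adjusted p = 0.00737 in edgeR's test).

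**Figure D3:**
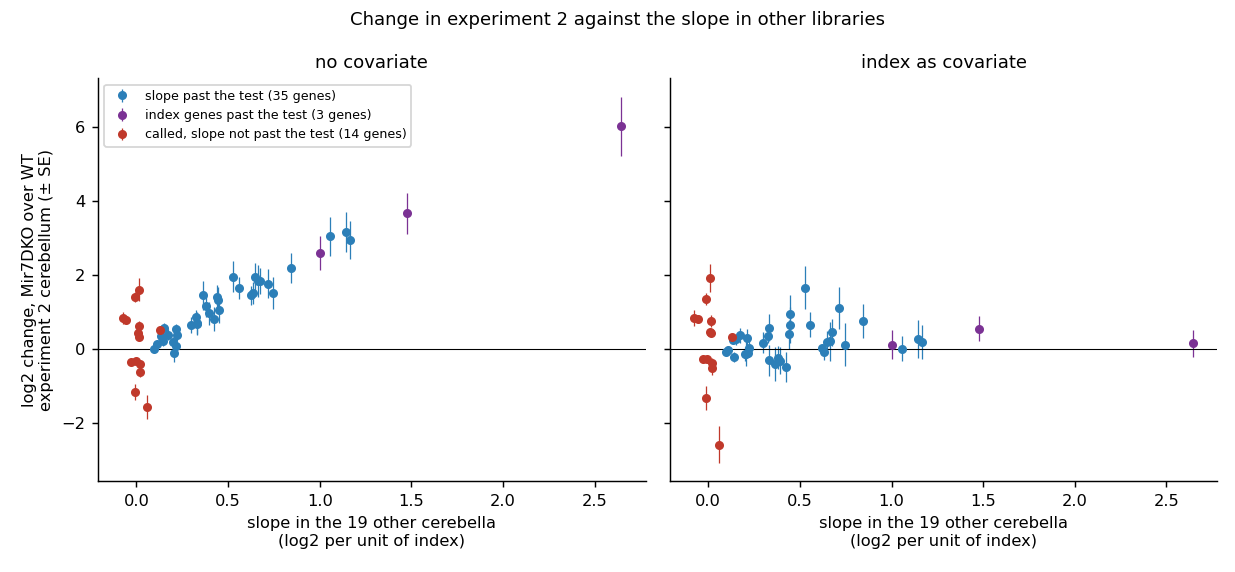
Log2 change in Mir7DKO against WT cerebellum of experiment 2 with its SE (vertical axis), without the index (left) and with it as covariate (right), against the slope on the choroid plexus index in the 19 cerebella of experiments 1A and 1B (horizontal axis, log2 per unit of index), for 35 slope genes (blue), the 3 index genes that passed the test (purple) and the 14 called genes that do not follow the index (red). On the left the change grows with the slope up to Ttr (slope 2.64, change 6.01), on the right genes with a slope lie nearer to 0, and the red genes lie above and below 0 at slopes near 0 in both panels.

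Among the 14 genes that did not follow the index, Cd59a and Wdfy1 were higher in all 3 Mir7DKO libraries by similar amounts. Cd59a (chr2:104095801-104115354, plus strand, GRCm38) encodes a membrane inhibitor of the terminal complement complex. It was at 6.85, 6.29, 5.62 and 6.26 CPM in WT and 18.6, 14.8 and 15.96 CPM in Mir7DKO. The groups did not overlap, and the log2 change was 1.40 (SE 0.13, adjusted p = 2.79e-06 in edgeR's quasi-likelihood test). Its slope on the index was -0.01, and its change with the index as covariate was 1.34 (SE 0.17). Without Mir7DKO 3, where the index and the genotype nearly coincide, that covariate fit gave -0.42 (SE 1.3). The neighbouring copy Cd59b was at 0.584 CPM or less in every library, and reads common to both copies could have been left uncounted. Wdfy1 (chr1:79702262-79776143, minus strand) encodes an endosomal adaptor of Toll-like receptor signalling. It was at 26.5, 31.3, 26.2 and 33.4 CPM in WT and 50.4, 50.4 and 51.1 CPM in Mir7DKO. Its log2 change was 0.78 (SE 0.081, adjusted p = 1.77e-05 in edgeR's test), and the 3 Mir7DKO libraries differed by less than 1 CPM.

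The 6 genes that fell were all outside the set that follows the index. Trim37 (chr11:87127077-87220683, plus strand), an E3 ubiquitin ligase gene, was at 400, 417, 391.6 and 395 CPM in WT and 322, 294 and 338 CPM in Mir7DKO. Its log2 change was -0.33 (SE 0.052, adjusted p = 0.00607 in edgeR's test). With the index as covariate the change was -0.26 and the adjusted p = 0.141 in edgeR's test. Renbp, which encodes the renin-binding protein, was at 3.67 to 4.70 CPM in WT and 1.95, 1.88 and 1.61 CPM in Mir7DKO (log2 change -1.18, SE 0.22). Padi2, which encodes the main brain peptidylarginine deiminase, an enzyme that turns protein arginine into citrulline, was at 32.8, 35.8, 39.0 and 35.2 CPM in WT and 28.2, 24.1 and 27.97 in Mir7DKO (log2 change -0.42, SE 0.084). For all 3 genes each Mir7DKO library was below every WT library of experiment 2. In the 15 cerebella of experiments 1A and 1B with other genotypes, normalised separately, Padi2 was at 18.7 to 35.2 CPM. Levels as low as those of the Mir7DKO libraries were thus not limited to Mir7DKO for Padi2.

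Gas7, a cytoskeletal adaptor gene expressed in cerebellar neurons, was at 1100, 1063, 941 and 1136 CPM in WT and 737, 909 and 857 CPM in Mir7DKO (log2 change -0.35, SE 0.065). The uncharacterised Gm10524 was at 9.87 to 11.7 CPM in WT and 6.999, 6.88 and 7.74 CPM in Mir7DKO (log2 change -0.62). Slc7a3, a cationic amino acid transporter gene, was at 5.62, 6.87, 4.88 and 6.34 CPM in WT and 1.14, 4.06 and 0.725 CPM in Mir7DKO (log2 change -1.56, SE 0.33). Library 2 was thus nearer to WT in Slc7a3 than libraries 1 and 3 were.

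Other higher genes that did not follow the index had smaller or less even changes. Msn, which encodes moesin, a protein that links the plasma membrane to actin, was at 77.1, 74.1, 81.1 and 73.1 CPM in WT and 116, 84.8 and 107 CPM in Mir7DKO (log2 change 0.43, SE 0.079). The chemokine gene Cxcl12 was at 71.6 to 80.1 CPM in WT and 94.0, 88.4 and 104 in Mir7DKO (0.33, SE 0.065). Nes, the intermediate filament gene of neural progenitors and vessels, was at 12.9 to 20.5 CPM in WT and 23.1, 24.8 and 27.6 in Mir7DKO (0.62, SE 0.12). Adamtsl2, a matrix glycoprotein gene, was at 0.484 to 0.977 CPM in WT and 1.87, 2.11 and 2.98 in Mir7DKO (1.59, SE 0.31). In the 15 cerebella of experiments 1A and 1B with other genotypes Adamtsl2 was at 1.13 to 3.39 CPM, so the WT libraries of experiment 2, which were normalised separately, lie below that range. Nes was at 14.7 to 28.3 CPM in those 15, a range that holds its Mir7DKO levels of experiment 2. Cdk5rap1, which encodes a mitochondrial tRNA-modifying enzyme, was at 4.59 to 6.67 CPM in WT and 7.81, 11.3 and 9.51 in Mir7DKO (0.83, SE 0.16). In these 5 genes each Mir7DKO library was above every WT library. A lack of overlap by itself was common, with 948 genes (6.7%), 479 higher (3.39%) and 469 lower (3.32%).

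With the index as a covariate, 18 genes (0.127%) passed edgeR's test, 8 higher (0.0566%) and 10 lower (0.0707%), while 1191 (8.42%) had an unadjusted p below 0.05. Among the 28 were 5 of these 18 genes (Cd59a, Wdfy1, Cxcl12, Slc7a3 and Adamtsl2). The count of 18 became 7 without WT 1, 8 without WT 2, 7 without WT 4, 91 without Mir7DKO 1, 126 without Mir7DKO 2 and 87 without Mir7DKO 3. Because Mir7DKO libraries 1 and 2 are high in the index and library 3 is not, this fit sets mostly library 3 against WT. Library 3 was the Mir7DKO library farthest from the WT mean for 16 of the 18 genes, and without it the change turned sign for 9 of them. Rif1, a regulator of replication timing, was at 172 to 187 CPM in WT and 174, 208 and 333 CPM in Mir7DKO (log2 change 0.84 with the index, 0.39 without). Eomes, the transcription factor gene of unipolar brush cells, was at 18.8 to 26.8 CPM in WT and 27.3, 24.6 and 43.8 in Mir7DKO (0.88 with the index, 0.48 without, and -0.31 with the index when Mir7DKO 3 was left out). The clock gene Per2 was at 27.6 to 40.8 CPM in WT and 28.9, 30.7 and 53.9 in Mir7DKO (0.65 with the index, 0.18 without). In these 3 genes library 3 was the highest of the 7. Fosl2, an AP-1 subunit gene, was the other higher gene (0.78 with the index).

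The lower genes in that fit included Airn, an imprinted antisense RNA of the Igf2r locus. It was at 29.4, 29.8, 27.3 and 28.9 CPM in WT and 31.6, 2.73 and 3.39 CPM in Mir7DKO (-3.38 with the index, -1.21 without). Libraries 2 and 3 were thus far below WT, and library 1 was just above it. Airn overlaps Igf2r on the opposite strand, and use of strand in the counting was not given in the sources used here. The amino acid transporter gene Slc7a5 was at 76.2 to 80.6 CPM in WT and 67.3, 68.0 and 52.8 in Mir7DKO (-0.55). Calb2, the calretinin gene of granule and unipolar brush cells, was at 335 to 353 CPM in WT and 272, 326 and 257 in Mir7DKO (-0.39 with the index, -0.27 and adjusted p = 0.10003 without, both in edgeR's test). With the index and without Mir7DKO 3 the change of Calb2 was 1.26 (SE 0.47). The others were Soga1 (-0.51), the sodium pump regulator gene Fxyd6 (-0.53), the cadherin gene Cdh15 (-0.64), AI848285 (-0.75), Tmem63c (-0.39) and Wscd2 (-0.36).

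**Figure D4:**
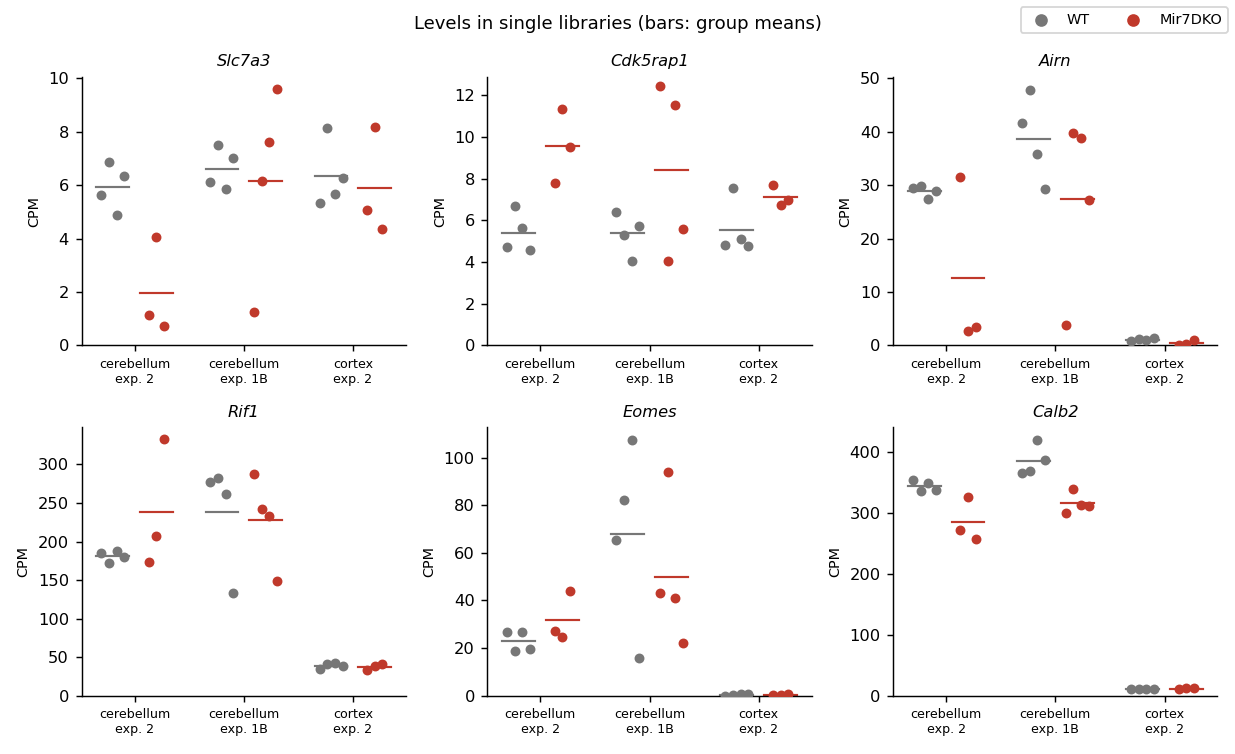
Levels (CPM, 1 point per library, bars at group means) of Slc7a3, Cdk5rap1, Airn, Rif1, Eomes and Calb2 in WT (grey) and Mir7DKO (red) libraries of experiment 2 cerebellum, experiment 1B cerebellum and experiment 2 cortex. Airn lies at 2.73 to 3.77 CPM in libraries 2 and 3 of experiment 2 and 1 library of experiment 1B, and at 27.3 to 39.9 CPM in the other Mir7DKO cerebella.

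The same genotype was compared in the cerebellum of experiment 1B, with 4 libraries a group and no library in common with experiment 2. There 1 of 14031 genes (0.00713%) passed edgeR's test, the pseudogene Pisd-ps1, which was higher there and at -0.49 in experiment 2, and 3.68% had an unadjusted p below 0.05. Cd59a was at 6.03, 6.25, 6.78 and 6.51 CPM in WT and 12.7, 12.3, 16.6 and 9.92 CPM in Mir7DKO, without overlap. Its log2 change was 1.01 (SE 0.15), with an adjusted p = 0.128 in edgeR's test. Wdfy1 was at 30.1 to 35.6 CPM in WT and 48.0, 50.6, 31.5 and 30.6 CPM in Mir7DKO, so 2 libraries were as high as in experiment 2 and 2 were at the WT level. Trim37 had a log2 change of -0.01 (SE 0.053) in 1B, and Msn (-0.12), Renbp (0.23) and Adamtsl2 (-0.59) had the opposite sign. Padi2 was at 26.7 to 34.6 CPM in WT and 22.2 to 36.2 CPM in Mir7DKO of 1B, a log2 change of -0.10 (SE 0.14). The difference of the effects was -0.32 (SE 0.077) for Trim37, 0.39 (SE 0.20) for Cd59a and 0.45 (SE 0.20) for Wdfy1. It did not pass for Trim37 (adjusted p = 0.992 in edgeR's test), Cd59a or Wdfy1 (0.999 for both). The unadjusted p-values in edgeR's test were 0.00057, 0.069 and 0.035 in that order, for genes picked by their experiment 2 calls. For the difference of the effects between the experiments, 0 of 14532 genes (0%) passed edgeR's test. The unadjusted p was below 0.05 for 556 genes (3.83%), and DESeq2 gave 0 with 463 at that p. The smallest p-values belonged to Pisd-ps1 (-2.40), whose reads may come from its parent gene, to Renbp (difference -1.40, adjusted p = 0.348 in edgeR's test), to Fmo2, to Msn (0.55, adjusted p = 0.406 in edgeR's test) and to Gm12338.

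Cortex libraries of experiment 2 gave the other comparison of the same genotype. In cortex 6 of 13754 genes (0.0436%) passed edgeR's test, with Cd59a, Wdfy1 and the vascular receptor gene Cd93 higher (0.0218%) and Trim37, Padi2 and Ttr lower (0.0218%). An unadjusted p below 0.05 was reached by 5.77%. Ttr thus moved in opposite directions in the 2 tissues, and Cd93 was at 0.33 in cerebellum without passing. Cd59a was at 2.34 to 3.95 CPM in WT cortex and 8.86, 9.04 and 7.66 in Mir7DKO (log2 change 1.51, SE 0.19). Wdfy1 was at 21.8 to 23.8 CPM in WT cortex and 40.9 to 43.0 in Mir7DKO (0.86, SE 0.072). Trim37 was at 524 to 590 CPM in WT cortex and 419, 412 and 446 in Mir7DKO (-0.38, SE 0.050). Padi2 was at 41.1 to 46.3 CPM in WT cortex and 25.6 to 27.9 in Mir7DKO (-0.70, SE 0.075). Msn, at 0.00 (SE 0.070), and Gas7, at -0.03 (SE 0.044), had values near 0 in cortex. The labels do not say whether cortex and cerebellum of a number came from the same mouse.

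**Figure D5:**
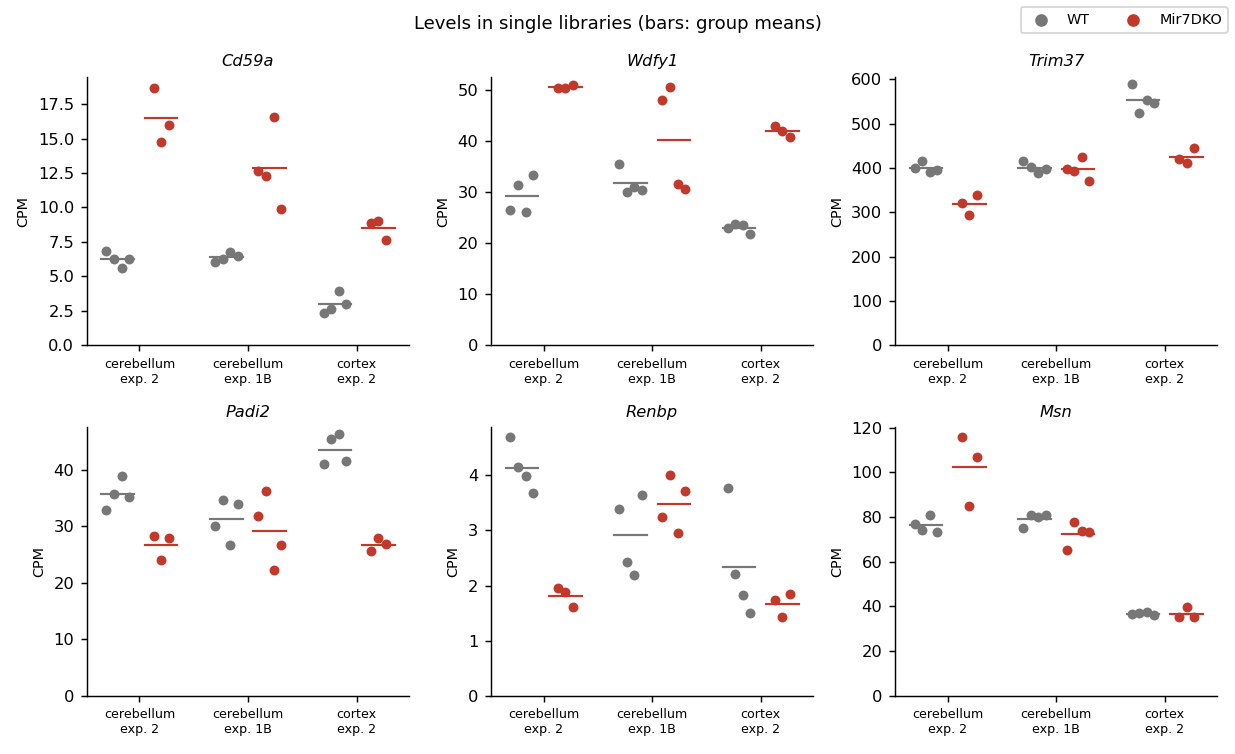
Levels (CPM, 1 point per library, bars at group means) of Cd59a, Wdfy1, Trim37, Padi2, Renbp and Msn in WT and Mir7DKO libraries of experiment 2 cerebellum, experiment 1B cerebellum and experiment 2 cortex. Cd59a is higher in every Mir7DKO library than in every WT library of its set, and Trim37 is lower in experiment 2 in both tissues and at the WT level in experiment 1B.

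Of 13100 genes tested in all 3 comparisons, 879 had Mir7DKO and WT libraries that did not overlap in the experiment 2 cerebellum. For Cd59a alone the groups were also apart, in the same direction, in the other comparisons. Between the 2 cerebellar experiments, 925 and 353 of 13893 genes had groups apart, 21 of them in both with the same direction and 5 with opposite directions. That is 2.27% of the first list and 5.95% of the second for the same direction.

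The effect differed between cerebellum and cortex for 23 of 14886 genes (0.155%) in edgeR's test, 22 with a higher difference in cerebellum and Taf1a, a gene of RNA polymerase I initiation, with a lower one (-1.05; 0.148% and 0.00672%). An unadjusted p below 0.05 was reached by 4.92%. The smallest p-values were those of Ttr (difference 11.79), Kl (5.53), Kcne2 (8.40), F5 (5.65) and Mfrp (9.47), all choroid plexus genes. The cortex libraries also differed in the index, in the other direction, with 1.08, 0.30, 2.81 and 3.03 in WT and 0.29 to 0.32 in Mir7DKO. With the index as a covariate, an analysis chosen after seeing the data, 0 genes passed. The difference for Cd59a was -0.11 (SE 0.22) and for Wdfy1 -0.07, and neither passed.

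Genes with miR-7 seed matches were then counted among those that changed. Matches were searched in the longest annotated 3′ UTR of each gene (GENCODE M21, GRCm38), on the transcribed strand, as GTCTTCCA (8mer), GTCTTCC (7mer-m8, not counted within an 8mer) or TCTTCCA (7mer-A1, likewise). Of 13191 tested genes with a 3′ UTR, 3572 (27.1%) held such a match. Of these, 6 passed as higher and 2 as lower, beside 22 and 5 of all 13191, and 7.59% had an unadjusted p below 0.05, against 6.87% of all. The median log2 change was -0.0009 for the 574 genes with an 8mer, none of which passed. It was -0.0042 for the 6876 genes with no match and no 6mer (TCTTCC). At an unadjusted p below 0.05, 168 of the 3572 genes were higher and 103 lower, beside 531 and 375 of all 13191. The median 3′ UTR length was 2328 bases for the 3572 genes and 717 bases for the 6876, and the part of length was not tested.

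The matches of 3 called genes that do not follow the index and of Klf4, a reported target, are shown in capitals with their flanks, 5′ to 3′ on the transcribed strand.
Msn, chrX:96167472-96167500, plus strand: atcctcagatcTCTTCCAgctaggacaga
Padi2, chr4:140950437-140950465, plus strand: tcagcacagaaTCTTCCAgaaataggtct
Gas7, chr11:67688517-67688545, plus strand: cgactctgtatGTCTTCCcttccctgggg
Klf4, chr4:55528034-55528062, minus strand: cctttcacactGTCTTCCcacgaggggag
Klf4, chr4:55527458-55527486, minus strand: aatctagttttGTCTTCCgatctacattg
Of the called genes shown, Msn was higher in Mir7DKO, and Padi2 and Gas7 were lower. Cd59a, Wdfy1 and Trim37 had no such match in searched 3′ UTRs of 1174, 3249 and 2349 bases. The other called genes with a match, Cab39l, Car12, Col8a1, Htr2c and Slc4a5, follow the index.

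Of 30 reported miR-7 targets, 27 were tested and none passed, with a median log2 change of 0.009 beside -0.002 for all genes. Klf4, a transcription factor gene, came nearest among those that were higher, at 3.27, 2.13, 3.99 and 3.34 CPM in WT and 4.23, 5.94 and 6.69 CPM in Mir7DKO. The groups did not overlap, and the log2 change was 0.81 (SE 0.21, adjusted p = 0.179 in edgeR's test). Set, a histone chaperone gene, had -0.21 (SE 0.083). Cyrano (annotated as 1700020I14Rik) was at 1614, 1667, 1706 and 1731 CPM in WT and 1686, 1757 and 1915 CPM in Mir7DKO, a log2 change of 0.09 (SE 0.048, adjusted p = 0.782 in edgeR's test). Cdr1as was at 961 to 1195 CPM in WT and 1017 to 1192 in Mir7DKO, a log2 change of 0.03 (SE 0.064). The intervals of these changes are set by a small number of libraries, and a p that misses the threshold does not show that the levels were alike.

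In the pathway lists of Cd59a, Wdfy1, Msn and Padi2, no other tested member passed the test. Among 15 tested complement genes and inhibitors, Cd59a alone passed, and the median log2 change was -0.02. The complement inhibitor genes Cd55 (-0.11) and Cd46 (-0.21) did not pass. Of 14 endosomal Toll-like receptor genes Wdfy1 alone passed (median 0.02), with Tlr3 at 0.00. Of 15 genes of the ERM proteins and their partners Msn alone passed (median 0.11). Its close relatives Ezr (0.21) and Rdx (0.03) did not, and the partner genes Podxl (0.25), Rock2 (0.15) and Slc9a3r2 (0.15) had unadjusted p-values below 0.05. Ezr followed the choroid plexus index in the other cerebella (slope 0.14). With the index as covariate its change was -0.21 (SE 0.13). Of 5 citrullination genes Padi2 alone was tested.

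Among markers of cell types, those of the choroid plexus alone passed the test without the index. Of the 12 index genes 7 were tested, 3 passed as higher and all 7 had an unadjusted p below 0.05. Of 25 other choroid plexus genes 20 were tested, 8 passed as higher and 20 were above 0, with a median log2 change of 0.83 that became 0.04 with the index. Their summed level was 436 to 501 CPM in WT and 1228, 1038 and 470 CPM in Mir7DKO. Ependymal and motile cilia genes had a median of 0.28 (10 tested, none passed), and their summed level was 55.8 to 63.2 CPM in WT and 68.1 to 70.1 in Mir7DKO, library 3 included. Their part in the changes of the genes named above was not tested.

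Markers of the defining cells of the cerebellum were detected in all 7 libraries. Granule cell markers summed to 9320 to 9806 CPM, with a median change of -0.02 (12 tested). Purkinje cell markers summed to 10491 to 10875 CPM in WT and 9862 to 10642 CPM in Mir7DKO, with a median of -0.06 (15 tested, 2 with an unadjusted p below 0.05, both lower). No marker of astrocytes and Bergmann glia (15 tested), oligodendrocytes (15), their precursors (8), microglia (14), endothelium (15), pericytes and smooth muscle (12), meningeal fibroblasts (14), erythrocytes (7), molecular layer interneurons (11) or unipolar brush cells (7) passed the test without the index, and their medians lay between -0.07 and 0.11. Of 7 tested brainstem and deep nuclei markers none passed (median -0.15), and Hoxb5, Hoxa5 and Chat were at 0 in every library.

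The authors' deposited table of this comparison, made with DESeq2, lists 25 genes with an adjusted p below 0.05, 18 of them higher, and 17 are among the 28. In the authors' deposited table Cd59a rose by 1.40 on the log2 scale (adjusted p 2.69e-13) and Wdfy1 by 0.79 (adjusted p 4.64e-12). Of the set that follows the index, Ttr, Kl, Col8a1, Ccdc135, 1500015O10Rik and Igfbp2 are among the 17, while in the authors' deposited table Enpp2 has an adjusted p of 0.379, Prlr 0.145 and Htr2c 0.519. Of the other set, Slc7a3 (0.637), Adamtsl2 (0.0981) and Gm10524 (0.0913) have adjusted p-values above the threshold in the authors' deposited table. The 8 genes of the authors' deposited table outside the 28 include the choroid plexus genes Mfrp (log2 change 4.91) and Kcne2 (5.005) and the claudin gene Cldn1 (3.19). Cldn1 too followed the index in the other cerebella (slope 1.06). Also among the 8 in the authors' deposited table are Calr (0.24) and Xbp1 (0.42), which serve protein folding in the endoplasmic reticulum. The others are Slc7a5 (-0.33), Calb2 (-0.27) and Prkce (-0.21) in the authors' deposited table.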

How the data were processed

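Raw read counts per gene were taken from the authors' deposited tables, which also hold log2 fold changes and p-values from DESeq2. STAR 2.4, HTSeq 0.6.1p1, DESeq2 1.10 and the builds mm10 and GRCm38 are named in the submitters' processing notes. Use of strand in the counting was not given in the sources used here.

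The main test was edgeR 4.0.16 (R 4.3.3, quasi-likelihood, filterByExpr with a minimum count of 10, TMM, Benjamini-Hochberg over all genes tested, threshold 0.05) on the 7 libraries, without a replicate block. SEs are the log2 change divided by the root of F. CPM use TMM factors computed within each set of libraries (experiment 2 cerebellum, other cerebella, cortex). An index gene was tested against an index without that gene. Of the fits, those of the experiment 2 cerebellum, without and with the index, were tested on simulated data. DESeq2 1.42.0, other filters, scalings and left-out libraries were alternatives. Features numbered 38393 per table, of which 36639 matched GENCODE M21, whose coordinates are given.

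Some genes are not reported here. Otherwise the named genes are all genes past the threshold with or without the index, the miR-7 network RNAs, and at most 4 members of smallest p per list, plus list members picked for their role. The members and lists were chosen with earlier results of these data known. Same-numbered libraries of the 2 genotypes did not deviate together (correlations -0.06, -0.08 and 0.04).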

Additional observations from a re-analysis of the deposited data

Results flagged for a closer look

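The choroid plexus index set 1 library apart from the other 3 of its group in 4 groups of the other cerebella. The library apart was the highest in CyrKO of experiment 1B (1.85), in Mir7DKO of experiment 1B (2.66) and in WT of experiment 1B (2.91), and the lowest in CyrMut of experiment 1A (0.66). Among the levels of the named genes in groups of 4 libraries, 1 WT library of experiment 2 stood apart for AI848285, at 24.6 CPM. In all, 62 groups of 4 were examined and 5 had such a library. Chance gives about 1 in 20 groups.

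For the genes named here the Mir7DKO effect differed between cerebellum and cortex of experiment 2 in edgeR's quasi-likelihood test. The log2 difference was 11.79 for Ttr, 5.53 for Kl, 8.40 for Kcne2, 5.65 for F5, 9.47 for Mfrp, 2.04 for Enpp2, 3.16 for Car12, 2.66 for Abca4, 4.42 for Prlr, 3.31 for 1500015O10Rik, 6.02 for Slc4a5 and 3.17 for Ccdc135. It was 0.60 for Cab39l. Choroid plexus transcripts were high in 2 of 3 Mir7DKO cerebella, the index of the WT cortex libraries was 1.08, 0.30, 2.81 and 3.03, and with the index as a covariate none of these differences passed.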

How the results depend on the processing

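The count of 28 genes depended on which libraries entered. It was 28 with DESeq2's size factors in edgeR, 25 with DESeq2, 31 with the replicate number as a block, 184 without a filter on low counts, 15 with genes kept from a mean of 50 normalised counts up, and 55 when both tissues shared 1 fit. Leaving out 1 library gave 3 to 70 genes, and leaving out Mir7DKO libraries 1 and 2 together gave 110. Cd59a (1.30 to 1.47) and Wdfy1 (0.73 to 0.86) passed under all 14 alternatives, and Trim37 under 12. Without WT 1 or WT 2, the 3 genes that passed were Cd59a, Wdfy1 and Ttr. Without Mir7DKO 1 and 2 together, changes turned below 0 for Enpp2 (-0.081), F5 (-0.15), Car12 (-0.14), Htr2c (-0.19), Ttr (-0.49) and Slc4a5 (-0.049); here the alternative itself removes the libraries high in the index.

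The 18 genes found with the index became 140 without a filter, 39 with DESeq2, 7 to 126 without 1 library, and 14 with the replicate number as a block. Without Mir7DKO 3 the index and the genotype nearly coincide, and the change turned sign for 9 genes, so that over the left-out libraries Calb2 ran from -0.42 to 1.26, Slc7a3 from -2.98 to 6.05, Cdh15 from -0.69 to 1.34, Eomes from -0.31 to 0.97, Cd59a from -0.42 to 1.38, Soga1 from -0.56 to 0.44, Cxcl12 from -0.52 to 0.46, Wscd2 from -0.37 to 0.42 and Fxyd6 from -0.57 to 0.25. The 60 slopes became 10 with experiment 1B alone. The difference between experiments gave 19 genes without a filter, 2 with the block, and 0 to 1 without 1 library. The difference between tissues gave 74 without a filter, 12 with DESeq2, 27 with the block, 5 to 48 without 1 library and 0 with the index, and the cause of the other shifts was not tested. The labels do not say whether the replicate numbers pair the libraries. Depth limits the hairpin counts, at most 8 in a library. In the 5 index genes that were not tested, WT libraries and Mir7DKO 3 were near 0.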

Other observations

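Several genes split the 7 Mir7DKO cerebella into low and high libraries. Airn was at 3.77, 39.9, 38.8 and 27.3 CPM in the 4 Mir7DKO cerebella of experiment 1B, and at 29.3 to 49.1 CPM in the 15 cerebella of experiments 1A and 1B with other genotypes. Slc7a3 was at 1.26, 6.13, 7.63 and 9.60 CPM in the 1B Mir7DKO libraries, against 5.53 to 7.52 CPM in those 15. Cdk5rap1 was at 12.5, 4.07, 11.5 and 5.56 CPM in the 1B Mir7DKO libraries, against 3.83 to 6.94 CPM in those 15. Slc7a3 and Airn were lowest in the same 1B library, replicate 1. In experiment 2 they were at 1.14 and 31.6 CPM in Mir7DKO 1 and at 4.06 and 2.73 CPM in Mir7DKO 2. Both were low in Mir7DKO 3, at 0.725 and 3.39 CPM. Calb2 was at 365 to 419 CPM in WT and 300 to 339 CPM in Mir7DKO of experiment 1B (log2 change -0.28, SE 0.059), beside -0.27 (SE 0.063) in experiment 2. Its WT and Mir7DKO groups did not overlap in either experiment, and it passed the test in neither without the index. In the CyrKO libraries of experiment 1B Calb2 was at 332, 397, 313 and 332 CPM, so low levels were not limited to Mir7DKO.

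Other gene groups held no gene that passed edgeR's test, and their counts at an unadjusted p below 0.05 stand beside 6.78% of all genes tested. Glucocorticoid-induced genes had a median log2 change of -0.15 over 12 tested, with Sgk1 (-0.37, adjusted p = 0.141 in edgeR's test), Mt2 (-0.39) and Tsc22d3 (-0.26) lower and Pdk4 (0.49) higher at an unadjusted p below 0.05. Of 15 interferon response genes 3 had an unadjusted p below 0.05, all lower (median -0.29), and 1 WT library stood high, with Ifit1 at 12.4 CPM in WT 4 and 4.09 to 4.45 CPM in the other WT libraries. Of 13 activity-induced genes Npas4 had the smallest p (0.88, adjusted p = 0.205 in edgeR's test). Of 19 basement membrane and matrix genes 6 were higher and 1 lower at an unadjusted p below 0.05, among them Sparc (-0.20), Hspg2 (0.33), Lamb1 (0.33) and Lama5 (0.39).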
